A study of Homo sapiens with 9 samples.

Results

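Glutathione is a tripeptide of glutamate, cysteine and glycine, and the genes described here encode the enzymes that make it, recycle it, break it down and join it to other molecules. The members were all protein-coding genes of the deposited count table whose name is that of a glutathione transferase of the alpha, kappa, mu, omega, pi, theta or zeta class, of a microsomal glutathione transferase or of a gamma-glutamyltransferase. Also taken by name were GSTCD, GCLC, GCLM, GSS, GSR, GGCT, GGACT, OPLAH, CHAC2, GLRX, GLRX2, GLRX3, GLRX5, GLO1, HAGH and ESD. This gave 41 genes of 58735 in the table, 19951 of which are protein-coding. The cells were OVCAR3, an established line from a human ovarian adenocarcinoma, sequenced after 72 h in culture. All 9 libraries come from cells that carried a short hairpin RNA (shRNA), an RNA that is cut inside the cell into a guide against matching mRNA. The groups were a scramble hairpin, labelled wild type by the submitters, and hairpins 76 and 78 against GPX3, labelled GPX3 knock-down and called sh76 and sh78 here, with 3 libraries each. GPX3, glutathione peroxidase 3, is a secreted selenoenzyme that reduces peroxides with glutathione, and the series asked what lowering it does in ovarian cancer cells. How the hairpins were delivered, and whether the replicates are separate cultures, is not given in the sources used here, so the p-values measure the spread between these libraries, which may be technical.

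In the pathway, GCLC and GCLM form glutamate-cysteine ligase, the rate-limiting step of synthesis, and GSS adds glycine. GSR reduces the oxidised disulfide with NADPH, and glutaredoxins use glutathione to reduce protein disulfides or to carry iron-sulfur clusters. Gamma-glutamyltransferases start breakdown outside the cell, while transferases join glutathione to electrophiles and GLO1 and HAGH use it to clear methylglyoxal. Many of these genes are known targets of NRF2, a transcription factor that binds antioxidant response elements.

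The libraries held 14652965 to 21327562 counts, and the 41 members took 0.164% to 0.191% of them. GPX3 stood at 173, 109 and 117 CPM (counts scaled by library size) in the scramble libraries, at 56.7, 55.1 and 55.5 with sh76 and at 35.2, 28.4 and 28.2 with sh78. Its log2 fold change was −1.25 for sh76 (SE 0.16, edgeR adjusted p = 0.00264) and −2.12 for sh78 (SE 0.17, adjusted p = 0.000125). GPX3 was thus lower in every hairpin library than in every scramble library, as the labels state, and sh78 lowered it further (log2 difference −0.86, adjusted p = 0.0194, lost in 5 of the 9 fits that leave out a library). All 8 markers of ovarian carcinoma epithelium had a mean of 1 or more FPKM (fragments scaled by gene length and library size) in each group. Their summed level was 1954 to 2249 FPKM with scramble, 1712 to 2014 with sh76 and 1602 to 1769 with sh78. PAX8 was called lower with sh76 (log2 fold change −0.28, adjusted p = 0.0196), and EPCAM (−0.33, adjusted p = 0.00386), KRT8 (−0.52, adjusted p = 0.00258) and KRT18 (−0.46, adjusted p = 0.0105) were called lower with sh78. The marker lists of fibroblasts, leukocytes, endothelium and hepatocytes summed to at most 5.62 FPKM in a library. Leukocyte markers summed to 0.806 to 1.31, 1.42 to 1.55 and 1.57 to 1.82 FPKM in scramble, sh76 and sh78, with no marker called. Endothelial markers summed to 2.17 to 2.48, 2.43 to 3.18 and 3.15 to 4.29 FPKM, with KDR called higher (0.55 and 1.00, adjusted p = 0.0395 and 0.00087). Hepatocyte markers summed to 1.51 to 2.05, 0.225 to 0.948 and 0.185 to 0.989 FPKM, with APOA1 at −2.22 and −1.96 (adjusted p = 0.0531 and 0.0782, 1.62e-05 and 6.82e-05 with the replicate number as a block). The part of these marker differences in the results was not tested.

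Promoter sequences were taken from the RefSeq table (GRCh38.p14), 250 bases before to 50 after a gene's start, and are shown 5′ to 3′ on the gene's own strand for the members that passed the test in a comparison and have an entry there. The table held 31 of the 41 members. HAGH has more than 1 start in it, at 1826825 and 1827194, and the promoter of the start at 1826825 is shown. Capitals mark TGACNNNGC, the core of the antioxidant response element, or its reverse complement.
GSTP1, chr11:67583562-67583861, plus strand: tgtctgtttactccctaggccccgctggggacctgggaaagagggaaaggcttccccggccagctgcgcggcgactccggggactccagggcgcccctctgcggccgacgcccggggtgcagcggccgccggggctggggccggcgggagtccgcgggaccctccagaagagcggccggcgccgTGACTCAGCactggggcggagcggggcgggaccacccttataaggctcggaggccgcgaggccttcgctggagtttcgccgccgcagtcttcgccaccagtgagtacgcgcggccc
HAGH, chr16:1826776-1827075, minus strand: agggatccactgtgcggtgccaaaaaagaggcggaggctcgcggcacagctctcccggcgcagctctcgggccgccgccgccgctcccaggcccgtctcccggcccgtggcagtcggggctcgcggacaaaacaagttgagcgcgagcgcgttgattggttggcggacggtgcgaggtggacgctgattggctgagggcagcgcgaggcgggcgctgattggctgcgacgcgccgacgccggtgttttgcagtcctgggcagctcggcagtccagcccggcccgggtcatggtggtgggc
GSTA2, chr6:52763426-52763725, minus strand: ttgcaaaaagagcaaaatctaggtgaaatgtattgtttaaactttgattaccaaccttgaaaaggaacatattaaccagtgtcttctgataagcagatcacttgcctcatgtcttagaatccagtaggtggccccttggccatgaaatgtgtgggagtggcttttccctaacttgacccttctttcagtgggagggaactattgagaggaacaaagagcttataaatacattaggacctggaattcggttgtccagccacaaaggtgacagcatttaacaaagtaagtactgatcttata
GGT7, chr20:34872807-34873106, minus strand: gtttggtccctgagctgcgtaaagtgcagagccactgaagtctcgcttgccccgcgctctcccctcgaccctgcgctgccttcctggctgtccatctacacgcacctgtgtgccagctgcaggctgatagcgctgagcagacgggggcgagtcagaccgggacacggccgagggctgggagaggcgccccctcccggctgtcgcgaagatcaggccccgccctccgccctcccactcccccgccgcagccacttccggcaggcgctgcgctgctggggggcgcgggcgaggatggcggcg
The core was searched on both strands. The 31 members in the table have 41 promoter entries, since a gene can have more than 1 start. The core stood in 8 of these entries, those of GCLM, GGT1, GSTA4, GSTM1, GSTM5, GSTO1, GSTP1 and MGST1, and in 13.3% of the 35116 promoters of the table. The AP-1 heptamer TGANTCA stood in the promoters of GGACT, GLO1 and GSTP1, and in 7.7% of all promoters. In GSTP1 both overlap in the letters TGACTCAGC, which begin 66 bases before the start. A match describes the letters and is no evidence that a factor binds there. The same core, with 10 bases on each side, is shown for further members whose levels are given below, so that the matches can be compared with that of GSTP1.
GSTP1, chr11:67583736-67583764, plus strand: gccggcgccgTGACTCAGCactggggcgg
GCLM, chr1:93909446-93909474, minus strand: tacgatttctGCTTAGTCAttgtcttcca
GSTA4, chr6:52995275-52995303, minus strand: ccgggaccgcTGACCTGGCgctttgtgcg
GSTO1, chr10:104254656-104254684, plus strand: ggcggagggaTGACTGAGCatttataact
GSTO1, chr10:104254721-104254749, plus strand: cgagatgcttTGACACAGCcccttaagat
MGST1, chr12:16347135-16347163, plus strand: ggggacatcgTGACAAAGCaaattgtctg
GGT1, chr22:24603154-24603182, plus strand: ggaaggaggaGCTGGGTCAcagcagggaa
The match in GCLM begins 34 bases before the start and that in GSTA4 9 bases before it. The 2 matches in GSTO1 begin 226 and 161 bases before the start, that in MGST1 lies 30 bases after it, and that in GGT1 begins 29 bases before it. Of these 6 genes, GSTP1 fell with both hairpins, and GSTA4 was called higher with sh78 when the replicate number was a block. All 6 are given with their values below.

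The levels of the members differed widely. On the FPKM scale, which divides by gene length and so allows genes to be compared, 2 members had a scramble mean of at least 100, 12 of at least 10 and 25 of at least 1. GSTP1, the pi-class transferase, was the highest at 212 ± 14.6 FPKM (SD, n = 3), followed by GLO1, the first glyoxalase, at 117 ± 15.5. GLRX5, a mitochondrial glutaredoxin of iron-sulfur cluster assembly, stood at 37.1 ± 2.11, MGST1, a membrane transferase, at 30.0 ± 2.29, and GSTO1, of the omega class, at 27.2 ± 4.21. The spreads of MGST1 and GSTO1 overlap, while GSTP1 and GLO1 stand apart from each other and from the rest. GSR at 23.8 ± 2.74 and GGCT, which releases 5-oxoproline from gamma-glutamyl dipeptides, at 21.9 ± 1.80 FPKM came next and overlap too. Synthesis genes were lower per length, with GCLM at 7.99 ± 1.31, GSS at 7.11 ± 0.241 and GCLC at 5.57 ± 0.766 FPKM. The count filter left 33 members for testing and removed 8, namely GSTA1, GSTA3, GSTA5, GSTM1, GSTM5, GSTT2B, GSTT4 and GGT2. None of these 8 had more than 20 counts in a library. GSTM1 had 0 counts in all 9 libraries, which allows up to 0.205 CPM (3 counts) in the shallowest one, for counting error alone. It shares 49.7% of its 50-base stretches with other genes, mainly GSTM2 and GSTM4, so that reads could be lost or assigned elsewhere.

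**Figure D1:**
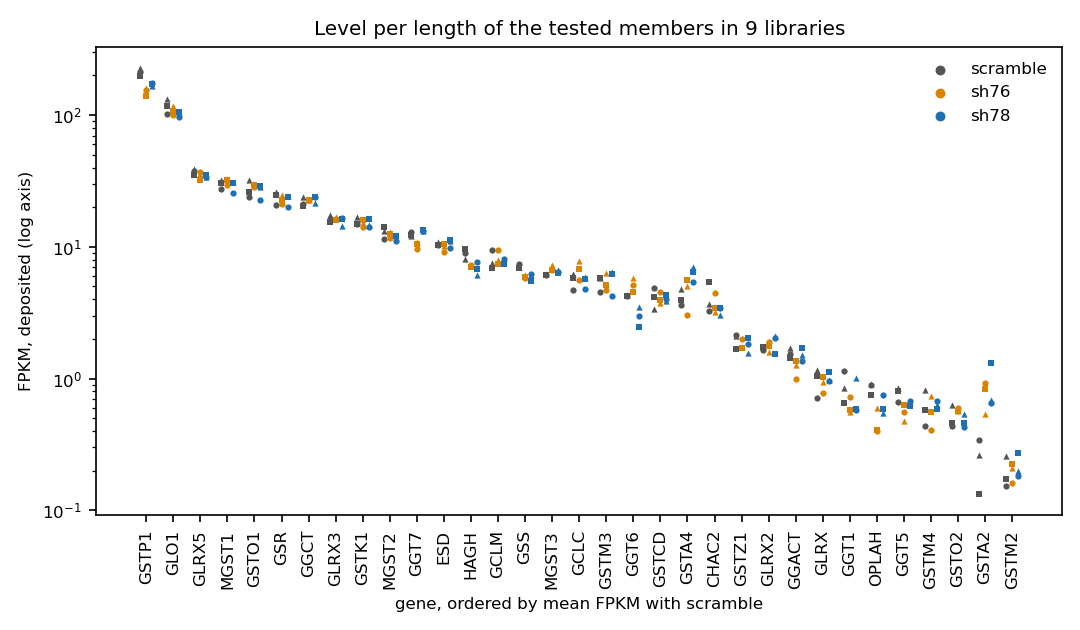
Deposited FPKM (log axis) of the 33 tested members in each of the 9 libraries, ordered by the scramble mean. Grey points are scramble, orange sh76 and blue sh78, with circles, squares and triangles for replicates 1, 2 and 3. GSTP1 and GLO1 are the 2 genes above 100 FPKM with scramble, and most genes show overlapping colours.

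Few members passed the test of either hairpin against scramble. With sh76, 1 of 33 tested members was called at an adjusted p under 0.05 (edgeR quasi-likelihood test, Benjamini-Hochberg over the 17023 genes tested), GSTP1, which fell. That is 3.03% of the members, beside 3.58% of all genes tested (1.43% higher and 2.16% lower). With sh78, 3 members were called (9.09%), GSTA2 higher and GSTP1 and HAGH lower, beside 4.41% of all genes (1.85% higher and 2.56% lower). GSTA2 passed the count filter through the hairpin groups alone, and without it 2 members were called, both lower. Between the hairpins, 2 members differed (6.06%), GGT7 higher and GGT6 lower with sh78, beside 3.7% of all genes (1.97% higher and 1.72% lower). The share of members called by sh76 is near the background, and those for sh78 and for the difference rest on 3 genes (2 without GSTA2) and 2 genes. GSTP1 was the 1 member called with both hairpins in the same direction. The share of all genes called with both is not given here, so this count is a description. The hairpin comparisons share the 3 scramble libraries.

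The typical member moved little. The median log2 fold change of the 33 was −0.05 for sh76 and −0.04 for sh78, beside 0.01 for all genes in each comparison, and the median size of the change without its sign was 0.11 in each, beside 0.15. The 95% interval of the log2 fold change lay within ±0.5 for 19 members with sh76, 23 with sh78 and 19 between the hairpins. For the others the interval reached past that size. All 3 sh76 libraries lay below all 3 scramble libraries for 7 members (21.2%, beside 11.7% of all genes), GSS, GGT5, GGT7, GGACT, OPLAH, GSTP1 and HAGH. They lay above for 3 (9.09%, beside 10.8%), GGT6, GSTA2 and MGST3. With sh78, 4 lay below (12.1%, beside 11.2%), GSS, GGT6, GSTP1 and HAGH, and 4 above (12.1%, beside 10.2%), GGT7, GSTA2, GSTA4 and MGST3. Both counts above scramble include GSTA2, which passed the count filter through the hairpin groups alone, so its place there is no support for a rise. Between the hairpins, sh78 lay above for GGT7 and GSTP1 (6.06%, beside 10.9%) and below for GGT6, GSTO2 and MGST3 (9.09%, beside 10.9%).

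The labels give each library a replicate number but state no pairing across the groups. The numbers were read as pairs because same-numbered libraries deviated alike from their group means. With the number as a block, more genes were called everywhere. In that fit 8 members were called with sh76 (24.2%, beside 20.4% of all genes), 7 with sh78 (21.2%, beside 19.9%) and 5 between the hairpins (15.2%, beside 18.3%). For sh76 these were GCLC, GSTA2 and MGST3 higher and GSS, GGT7, OPLAH, GSTP1 and HAGH lower. For sh78 they were GSTA2 and GSTA4 higher and GSS, GGT6, GSTP1, GLO1 and HAGH lower. Called with both hairpins in the same direction were 4 members, GSTP1, GSS, HAGH and GSTA2, the last of which passed the count filter through the hairpin groups alone. GSTA2 is also among the 8 and the 7. No share of all genes called with both hairpins is given beside the 4, so that count is a description. The adjusted p from the block is printed below beside each member whose call it changes.

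**Figure D2:**
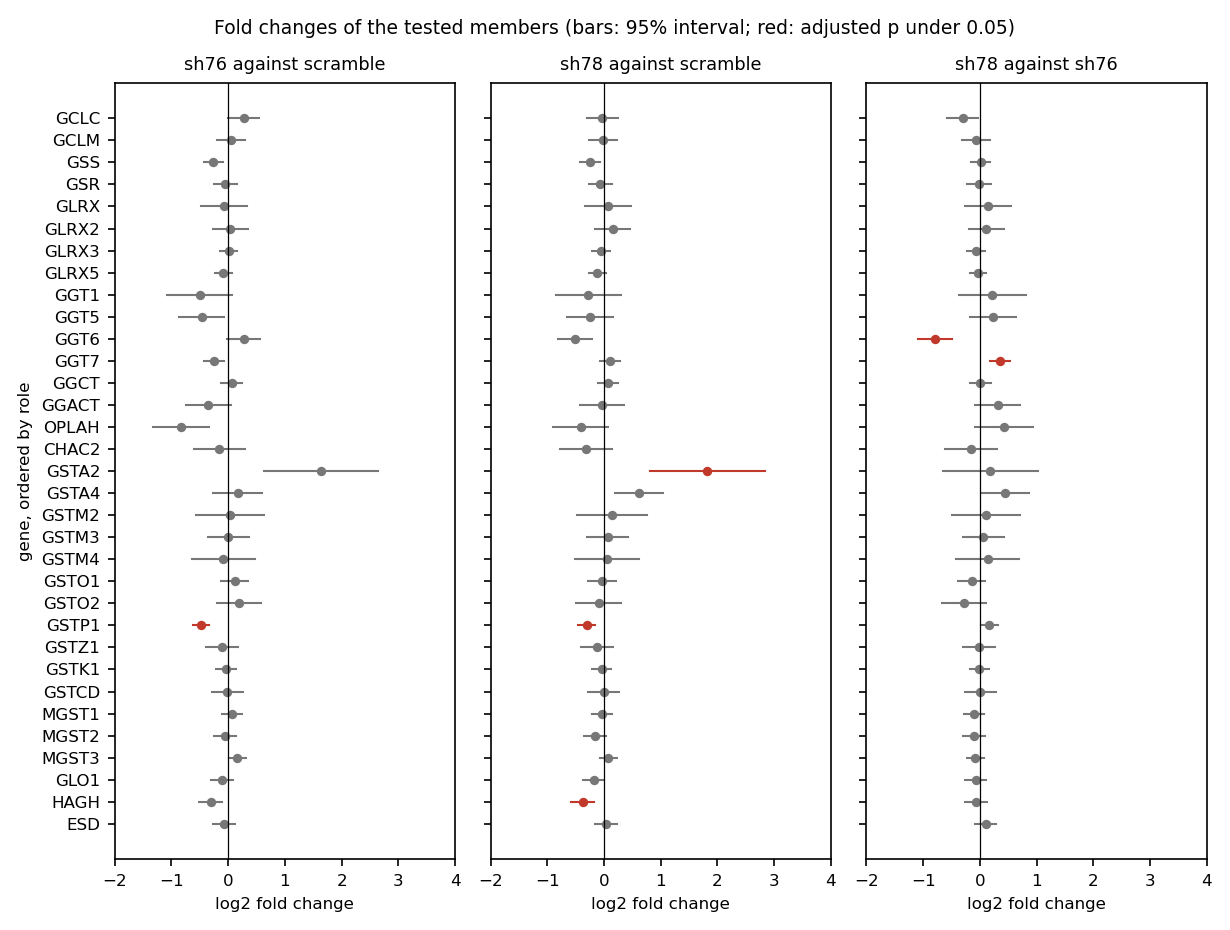
Log2 fold change of the 33 tested members in the 3 comparisons, from the fit without the block, with the 95% interval as a bar and genes ordered by role. Red marks an adjusted p under 0.05: GSTP1 with sh76, GSTP1, HAGH and GSTA2 with sh78, and GGT6 and GGT7 between the hairpins.

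Of the synthesis genes, none passed the test in a comparison without the block. GSS, which joins glycine to gamma-glutamylcysteine, stood at 45.9, 43.2 and 43.1 CPM with scramble, at 35.8, 36.5 and 37.7 with sh76 and at 38.7, 34.2 and 38.2 with sh78. All 6 hairpin libraries of GSS lay below all 3 scramble libraries. Its log2 fold change was −0.26 with sh76 (SE 0.08, adjusted p = 0.0888, 0.00246 with the block) and −0.25 with sh78 (SE 0.08, adjusted p = 0.107, 0.00449 with the block). GCLC, the catalytic subunit of the ligase, stood at 41.2, 50.1 and 53.8 CPM with scramble, 48.8, 58.9 and 67.4 with sh76 and 41.9, 49.03 and 51.7 with sh78. Its groups overlap, and replicate 1 was the lowest in each. The log2 fold change of GCLC was 0.27 with sh76 (adjusted p = 0.292, 0.000513 with the block) and −0.03 with sh78 (adjusted p = 0.946), and sh78 was −0.30 from sh76 (adjusted p = 0.261, 0.000222 with the block). GCLM, the regulatory subunit, had group means of 43.5 ± 7.19, 44.9 ± 5.70 and 42.8 ± 2.09 CPM, with a log2 fold change of 0.05 for sh76 and of −0.02 for sh78. The FPKM ratio of GCLC to GCLM was 0.501, 0.828 and 0.823 in scramble replicates 1, 2 and 3, and it was 0.596, 0.916 and 0.981 with sh76 and 0.595, 0.760 and 0.738 with sh78. Replicate 1 had the lowest ratio in each group, and the groups overlap.

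GSR, glutathione reductase, stood at 89.7 ± 10.0, 86.7 ± 6.91 and 86.0 ± 8.47 CPM in scramble, sh76 and sh78. Its log2 fold changes were −0.05 (95% interval −0.26 to 0.16) and −0.06 (−0.27 to 0.14). The estimates for the glutaredoxins were close to scramble as well, and none of the 4 passed the test. GLRX3, a cytosolic iron-sulfur glutaredoxin, had means of 84.7, 85.0 and 81.4 CPM, and GLRX5 had means of 106, 100.1 and 97.8 CPM. GLRX, the cytosolic thiol-disulfide enzyme, and GLRX2, its mitochondrial relative, were lower in counts, with group means of 6.01 to 6.66 and 10.6 to 11.8 CPM. Log2 fold changes of the 4 against scramble ran from −0.12 to 0.15. The 95% interval of GLRX was wide, at −0.48 to 0.34 with sh76 and −0.34 to 0.48 with sh78. For GLRX2 it was −0.27 to 0.35 with sh76 and −0.16 to 0.46 with sh78. SNHG10 and TROVE2 overlap GLRX5 and GLRX2 on the opposite strand, and the libraries carry no strand. Counts of GLRX5 and GLRX2 may thus include reads of these genes, or miss reads of the shared bases that were left unassigned. The counting settings are not given, so which of these applies was not tested. The same holds for GGACT with PCCA, GSTCD with INTS12 and MGST2 with MAML3.

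The turnover genes held both members that differed between the hairpins. GGT6 (chr17:4556927-4560818, GRCh38), a gamma-glutamyltransferase family member, stood at 13.5, 13.4 and 13.7 CPM with scramble, at 16.3, 14.6 and 18.3 with sh76 and at 9.57, 7.83 and 11.02 with sh78. The 3 groups do not overlap: sh76 was above scramble and sh78 below it. Its log2 fold change was 0.28 with sh76 (adjusted p = 0.311) and −0.51 with sh78 (adjusted p = 0.0565, 0.000555 with the block). The hairpins differed by −0.79 (SE 0.14, 95% interval −1.09 to −0.49, adjusted p = 0.00578), a call kept in all 9 fits that leave out a library. GGT7, another family member, stood at 38.8, 36.4 and 35.5 CPM with scramble, at 28.9, 31.5 and 32.2 with sh76 and at 39.3, 40.2 and 39.6 with sh78. Here sh76 was the low group and sh78 lay just above scramble. The log2 fold change of GGT7 was −0.26 with sh76 (adjusted p = 0.105, 0.00614 with the block) and 0.11 with sh78 (adjusted p = 0.571). The difference of sh78 from sh76 was 0.36 (SE 0.08, adjusted p = 0.0238), a call lost in the 6 fits that leave out a sh76 or sh78 library (highest adjusted p = 0.0939). The GGT7 and GGT6 differences therefore run in opposite directions.

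OPLAH, 5-oxoprolinase, which returns 5-oxoproline to glutamate, stood at 3.98, 3.34 and 4.01 CPM with scramble, at 1.79, 1.84 and 2.67 with sh76 and at 3.39, 2.61 and 2.46 with sh78. All sh76 libraries lay below scramble, and sh78 overlapped both. Its log2 fold change was −0.84 with sh76 (SE 0.23, adjusted p = 0.0629, 0.00397 with the block and 0.046 with DESeq2) and −0.41 with sh78 (adjusted p = 0.39). These values rest on 29 to 70 counts in a library. GGT1, the enzyme that cleaves glutathione at the cell surface, was low, at 3.91 ± 1.08, 2.77 ± 0.431 and 3.22 ± 1.08 CPM. It shares 35.9% of its 50-base stretches with other genes and 306 exon bases with SNRPD3, so its counts are uncertain. GGT5 had means of 4.69, 3.39 and 3.96 CPM, and its sh76 libraries all lay below scramble (log2 fold change −0.47, adjusted p = 0.201). GGACT, which releases 5-oxoproline from gamma-glutamyl-lysine, had means of 5.40, 4.22 and 5.30 CPM (sh76 log2 fold change −0.35, adjusted p = 0.348). CHAC2, a cytosolic glutathione-cleaving enzyme, had means of 5.44, 4.92 and 4.37 CPM, and GGCT of 35.1, 36.6 and 36.8 CPM. GGCT has 21.9% of its 50-base stretches in other genes. None of the 8 tested turnover genes was called against scramble without the block, and 6 of the 8 had a log2 fold change below 0 with each hairpin. They were not the same 6, as GGT7 was below 0 with sh76 alone and GGT6 with sh78 alone.

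GSTP1 (chr11:67583595-67586656, plus strand), whose promoter is printed above, held most of the soluble transferase message and fell with both hairpins. It stood at 405, 380 and 433 CPM with scramble, at 299.7, 269 and 308 with sh76 and at 336, 332 and 317 with sh78. All 6 hairpin libraries lay below the lowest scramble library, and each sh76 library lay below each sh78 library. The sh76 level was 71.9% of scramble (log2 fold change −0.47, SE 0.07, adjusted p = 0.00177), a call kept in every fit that leaves out a library. With sh78 it was 80.8% of scramble (log2 fold change −0.31, SE 0.07, adjusted p = 0.018), a call lost without scramble replicate 3, sh78 replicate 2 or sh78 replicate 3 (highest adjusted p = 0.0835). The hairpins differed by 0.17 (adjusted p = 0.222, 0.00488 with the block). GSTP1 shares no 50-base stretch with another gene. Over the FPKM of the 20 transferases (16 soluble ones, GSTK1 and the 3 MGST genes), GSTP1 made up 66.7 ± 1.70% with scramble, 57.9 ± 2.37% with sh76 and 61.7 ± 2.63% with sh78 (SD, n = 3). Of the 16 soluble ones alone it made up 83.8 ± 1.28%, 77.3 ± 1.73% and 79.6 ± 2.31%. The sum itself was 317 ± 21.7, 262 ± 11.4 and 277 ± 7.89 FPKM. The lowest scramble share of 65.3% stood above the highest sh78 share of 64.7% and all sh76 shares. The shares and the sum contain GSTP1 itself, so they are no separate support for its fall.

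GSTA2, an alpha-class transferase best known from liver, was near the limit of detection with scramble. It entered the test through the hairpin groups alone, which passed the count filter where scramble did not, so its call is no support for a rise. It had 7, 3 and 6 counts with scramble, 20, 23 and 15 with sh76 and 16, 25 and 14 with sh78. Every hairpin library lay above every scramble library. The log2 fold change was 1.82 with sh78 (SE 0.47, adjusted p = 0.0437, lost in 7 of the 9 fits that leave out a library, highest adjusted p = 0.187) and 1.64 with sh76 (SE 0.47, adjusted p = 0.0735, 0.0102 with the block). GSTA2 shares 18.4% of its 50-base stretches with other genes, mainly GSTA1. The counts of GSTA1 and GSTA2 together came to 1.03, 0.176 and 0.573 CPM with scramble, 1.79, 1.36 and 1.14 with sh76 and 1.94, 2.13 and 1.36 with sh78. These sums keep the order of the groups, with scramble replicate 1 nearest to the hairpin libraries. They contain the GSTA2 counts themselves, so they are no support for a rise either.

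GSTA4, the alpha-class enzyme that acts on 4-hydroxynonenal, stood at 7.96, 8.61 and 10.3 CPM with scramble, at 6.71, 12.3 and 11.0045 with sh76 and at 11.8, 14.1 and 15.4 with sh78. All sh78 libraries lay above scramble, while sh76 held the lowest library of all. Its log2 fold change was 0.62 with sh78 (SE 0.20, adjusted p = 0.109, 0.000171 with the block) and 0.17 with sh76 (adjusted p = 0.736), and the hairpins differed by 0.45 (adjusted p = 0.266, 0.00383 with the block). Replicate 1 was the lowest library of GSTA4 in each group. The remaining soluble transferases were not called in any comparison with or without the block. GSTM3, the mu-class gene with the highest count, had means of 25.7 ± 3.45, 25.7 ± 3.95 and 27.0 ± 5.98 CPM. GSTM2 and GSTM4 stood at 1.78 to 1.98 and 3.29 to 3.64 CPM as group means, and they share 16.0% and 15.5% of their 50-base stretches with other genes, chiefly of the mu class. GSTO1 had means of 46.2, 49.997 and 45.3 CPM, GSTO2 of 5.04, 5.77 and 4.74, and GSTZ1, which isomerises maleylacetoacetate in tyrosine breakdown, of 16.8, 15.5 and 15.4. GSTK1, a mitochondrial and peroxisomal transferase of another fold, had means of 65.8, 64.2 and 63.9 CPM, and GSTCD, named for its transferase-like domain, of 26.0, 25.8 and 25.9.

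**Figure D3:**
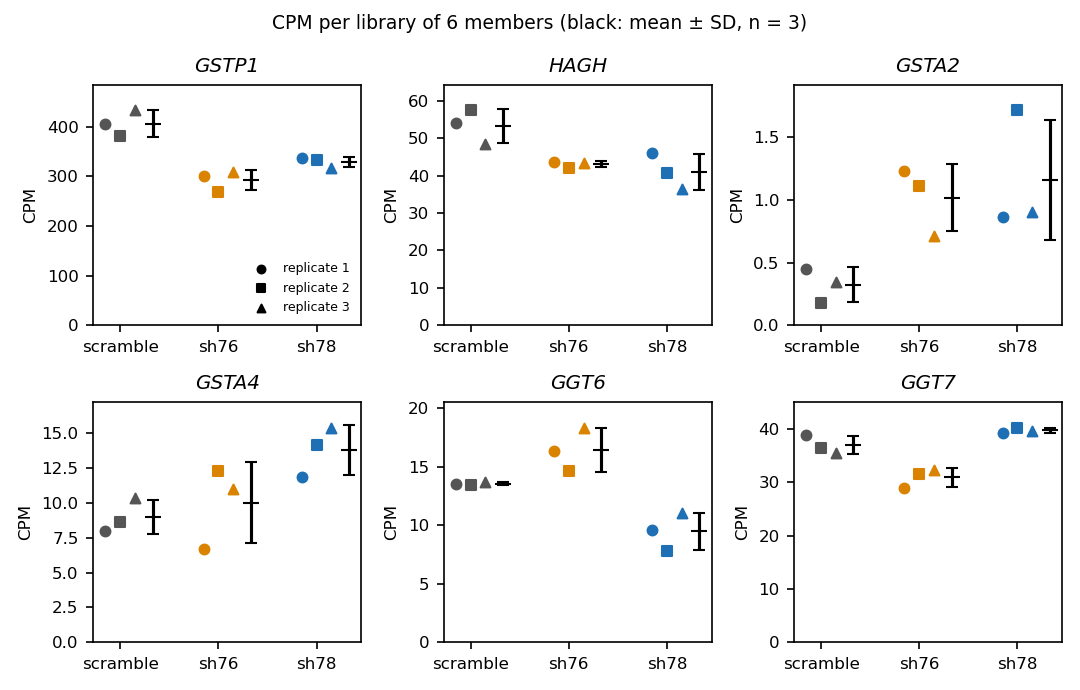
CPM of GSTP1, HAGH, GSTA2, GSTA4, GGT6 and GGT7 in each library (circles, squares and triangles for replicates 1, 2 and 3), with the mean and SD of 3 libraries in black and axes from 0. GSTP1 and HAGH are lower in all hairpin libraries than with scramble, and GGT6 and GGT7 separate sh76 from sh78. GSTA2 is higher in all hairpin libraries, but it passed the count filter through those groups alone, so this is no support for a rise.

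Membrane-bound transferases were near their scramble level. MGST1, which reduces lipid hydroperoxides as well as conjugating electrophiles, had means of 224 ± 16.4, 235 ± 11.4 and 219 ± 22.9 CPM, and MGST2 of 41.2, 39.6 and 37.1. MGST3 stood at 52.0, 51.6 and 52.2 CPM with scramble, at 56.0, 56.6 and 61.0 with sh76 and at 54.8, 53.3 and 55.9 with sh78. All 6 hairpin libraries of MGST3 lay above scramble, by a small amount. Its log2 fold change was 0.16 with sh76 (SE 0.07, adjusted p = 0.251, 0.0402 with the block) and 0.08 with sh78 (adjusted p = 0.654).

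In the glyoxalase pathway, HAGH fell with sh78. HAGH, hydroxyacylglutathione hydrolase, returns glutathione after GLO1 has used it, and stood at 54.0, 57.5 and 48.4 CPM with scramble, at 43.7, 42.1 and 43.3 with sh76 and at 45.9, 40.6 and 36.4 with sh78. No hairpin library reached the lowest scramble library. The log2 fold change was −0.38 with sh78 (77.0% of scramble, SE 0.09, adjusted p = 0.0365, lost in 6 of the 9 fits that leave out a library, highest adjusted p = 0.147). It was −0.31 with sh76 (80.8% of scramble, SE 0.09, adjusted p = 0.0899, 0.000399 with the block). HAGH shares 254 exon bases (4.3% of its exon length) with FAHD1 on the opposite strand, and unstranded reads from there cannot be told apart. FAHD1 stood at a log2 fold change of 0.10 with sh76 (adjusted p = 0.543) and −0.15 with sh78 (adjusted p = 0.323). GLO1, which forms S-lactoylglutathione from methylglyoxal and glutathione, stood at 241, 277 and 312 CPM with scramble, at 236, 256 and 276 with sh76 and at 229, 249.7 and 251.1 with sh78. Its groups overlap, with replicate 1 the lowest in each. The log2 fold change of GLO1 was −0.11 with sh76 (adjusted p = 0.575) and −0.18 with sh78 (adjusted p = 0.298, 0.00237 with the block). ESD, S-formylglutathione hydrolase, had means of 35.8, 34.1 and 36.7 CPM, with a log2 fold change of −0.07 for sh76 and of 0.03 for sh78.

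Replicate number moved many members in the same way in every group. In scramble, sh76 and sh78 alike, replicate 1 lay below replicates 2 and 3 for 12 of the 33 tested members (36.4%, beside 15% of all genes), GCLC, GSR, GLRX, GSTA4, GSTM2, GSTM3, GSTO1, GSTK1, MGST1, MGST2, GLO1 and ESD. It lay above both for 1 member, GCLM (3.03%, beside 13.6% of all genes). For GCLC the log2 difference of replicate 1 from the mean of replicates 2 and 3 was −0.33, −0.37 and −0.26 in the 3 groups, and for GCLM it was 0.38, 0.30 and 0.07. By this measure, replicate 1 of GSTP1 and GGT6 lay near the mean of replicates 2 and 3. The differences were 0.00, 0.06 and 0.05 for GSTP1 and 0.00, 0.00 and 0.04 for GGT6. In GGT6, however, replicate 2 was the lowest and replicate 3 the highest library of each group, which that mean does not show. GSTP1 had the same order with scramble and sh76 but not with sh78. GPX3 itself was highest in replicate 1 of each group.

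**Figure D4:**
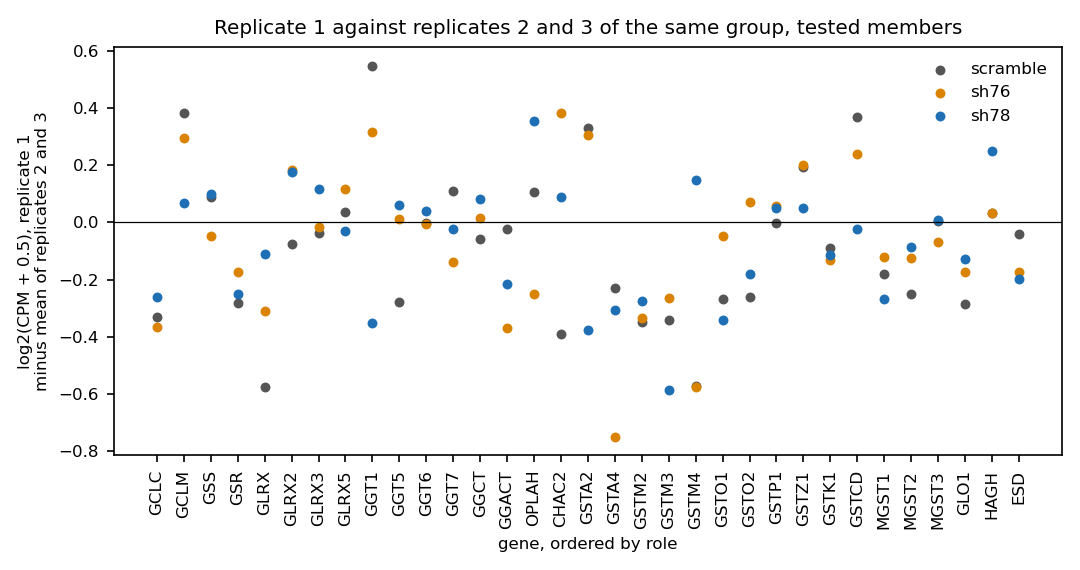
Log2(CPM + 0.5) of replicate 1 minus the mean of replicates 2 and 3 of the same group, for the 33 tested members in order of role (grey scramble, orange sh76, blue sh78). For 12 members replicate 1 was below both other replicates in all 3 groups, and GCLM was above both.

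Among the other genes of the pathway, SLC7A11 and SLC3A2, 2 of the 4 that supply cysteine, fell with both hairpins. The list held 42 genes, of which 34 were tested, and 6 were called with sh76 (2 higher, 4 lower), 5 with sh78 (1 higher, 4 lower) and 1 between the hairpins (lower). These are 17.6%, 14.7% and 2.94% of the 34, beside 3.58%, 4.41% and 3.7% of all genes. With the block these counts were 22, 17 and 12 (64.7%, 50% and 35.3%, beside 20.4%, 19.9% and 18.3%). The median log2 fold change of the 34 was −0.17 with sh76 and −0.11 with sh78, beside 0.01 for all genes in each. The list was chosen with earlier results of these data known, so its shares are a description. SLC7A11, the cystine importer, stood at 58.3, 39.9 and 40.5 CPM with scramble, at 30.9, 27.7 and 28.8 with sh76 and at 29.6, 24.3 and 24.1 with sh78. It fell by 0.67 on the log2 scale with sh76 (adjusted p = 0.0177, lost without sh76 replicate 2 or 3, highest adjusted p = 0.0961) and by 0.83 with sh78 (adjusted p = 0.00437). Its partner SLC3A2 fell by 0.44 and 0.45 (adjusted p = 0.00315 and 0.00209). CHAC1, a glutathione-cleaving enzyme of the integrated stress response and relative of CHAC2, went from 24.7 ± 4.68 CPM to 13.5 ± 2.49 and 11.3 ± 2.24. Its log2 fold changes were −0.87 (adjusted p = 0.017, lost in 3 of the 9 fits that leave out a library) and −1.12 (adjusted p = 0.00346). Thus CHAC1 fell with both hairpins, while its relative CHAC2 had log2 fold changes of −0.16 and −0.32 (adjusted p = 0.771 and 0.512); the difference between the 2 genes was not tested.

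ANPEP, an aminopeptidase of the cell surface that splits the cysteinylglycine left by gamma-glutamyltransferase, stood at 215, 270.4 and 257 CPM with scramble, at 370.3, 385 and 373 with sh76 and at 235, 276 and 312 with sh78. It rose with sh76 (log2 fold change 0.60, adjusted p = 0.00561), and sh78 was lower than sh76 by −0.46 (adjusted p = 0.024, lost in 5 of the 9 fits that leave out a library). Of the transporters of glutathione conjugates, ABCC3 rose with sh76 (1.02, adjusted p = 0.0208, lost in 4 of the 9 fits, and 0.71 with sh78, adjusted p = 0.102, 0.00013 with the block). ABCC4 rose with sh78 (0.50, adjusted p = 0.03, lost in 5 of the 9 fits, and 0.05 with sh76, adjusted p = 0.874). IDH1, a source of cytosolic NADPH, fell with sh78 (−0.32, adjusted p = 0.00808) and stood at −0.18 with sh76 (adjusted p = 0.131, 0.00256 with the block). CLIC4, of the transferase fold, fell with sh76 (−0.31, adjusted p = 0.0301, lost in 4 of the 9 fits) and stood at −0.17 with sh78 (adjusted p = 0.217, 0.00256 with the block).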

How the data were processed

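Poly-A RNA of 9 OVCAR3 libraries was sequenced without strand, per the labels' protocols. The authors deposited raw counts per gene and FPKM values, which divide counts by gene length and library size. HISAT2 2.0.5, featureCounts 1.5.0-p3 and hg38 are named in the submitters' processing notes, and the annotation and settings are not given in the sources used here. All 58735 gene identifiers matched GENCODE 29 with the same start and end. No column was left out (0).

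Testing used edgeR 4.0.16 (R 4.3.3) on the counts: filterByExpr (minimum count 10, minimum total 15) kept 17023 genes, with TMM scaling, a robust quasi-likelihood fit with 1 coefficient per group over all 9 libraries, and Benjamini-Hochberg adjustment over the genes kept. Calls required an adjusted p under 0.05. The common biological coefficient of variation was 10.4%. CPM values use the TMM factors. Within groups, the chi-square statistic per degree of freedom between replicates ran from 4.9 to 11.1, so no replicates were duplicates of each other.

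The labels number the replicates 1 to 3 in each group. Deviations from the group means correlated at r = 0.142 to 0.391 across genes in the 9 same-numbered pairs and at −0.31 to 0.0639 in the 18 others, so the numbers were read as pairing the libraries, and a fit with the number as a block (4 residual degrees of freedom, against 6 without it) was run beside the first. Other alternatives were DESeq2 1.42.0, its size factors in edgeR, no count filter, limma 3.58.1 on log2(FPKM + 1) and log2(FPKM + 0.1), and leaving out each library. Promoters are those of RefSeq.

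Members and the list of other pathway genes were chosen with earlier results of these data known. All tested members are named by role, with every library shown for those called in a comparison with or without the block. Other pathway genes are named where called without it, and 1 gene first put on that list is not reported here.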

Additional observations from a re-analysis of the deposited data

Results flagged for a closer look

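The effects of the hairpins, each set against the same scramble libraries, differed by the test of sh78 against sh76 for 2 of the 33 tested members, 1 of the 34 tested other pathway genes and the targeted gene, beside 3.7% of all genes. With the replicate number as a block, 5 of the members and 12 of the other pathway genes differed, beside 18.3% of all genes. For GGT6 the log2 difference was −0.79 (edgeR adjusted p = 0.00578), with all 3 sh78 libraries below and all 3 sh76 libraries above scramble. For GGT7 it was 0.36 (adjusted p = 0.0238), with all 3 sh76 libraries below and all 3 sh78 libraries above scramble, and neither called against scramble without the block. For ANPEP it was −0.46 (adjusted p = 0.024), with sh76 called higher than scramble and sh78 not called. GPX3 itself differed by −0.86 (adjusted p = 0.0194). How deep GPX3 was lowered and which hairpin sequence was used cannot be told apart in this design.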

How the results depend on the processing

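The log2 fold changes of the tested members, the other pathway genes called without the block and FAHD1 gave 1889 values under the alternatives. Of these, 1703 kept their direction and call, 58 lost a call and 37 gained one. The other 91 changed sign without being called in either fit, and 0 called values changed sign. Members called were 1 with sh76, 3 with sh78 and 2 between the hairpins. With the replicate block they were 8, 7 and 5. Without the count filter, 4 were called with sh76 and 5 with sh78. DESeq2 called 2 with sh76, and limma on log2(FPKM + 1) called 1 with sh78. Leaving out a library gave 1 to 1, 0 to 4 and 1 to 2 calls. The 3 calls with sh78 (GSTP1, HAGH, GSTA2) were all lost without sh78 replicate 2 or 3, where the latter fit called GGT6 alone, and 1 was left without scramble replicate 1, 2 or 3 or sh76 replicate 2. Between the hairpins, 1 was left without any single sh76 or sh78 library. The log2 fold change of GPX3 ran from −1.38 to −1.02 with sh76, from −2.24 to −1.88 with sh78 and from −0.98 to −0.80 between the hairpins, where the call was lost in 5 of 9 fits. GSTP1 with sh76 and GGT6 between the hairpins kept their calls under every alternative run. In genes with few counts, such as GSTA2, GGT1 and OPLAH, depth limits what can be detected.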
